A study of Mus musculus with 6 samples.

Results

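Lipid-associated macrophages are fat-tissue macrophages that take up and break down lipid. Their expression state is recognized by a set of surface receptors, tetraspanins, lysosomal proteins and secreted proteins that depends in large part on the receptor TREM2. The 10 genes described here, Gpnmb, Trem2, Cd9, Spp1, Itgax, Atp6v0d2, Mmp12, Lgals3, Cd63 and Lipa, were taken by symbol from the 16538 genes listed for inguinal white fat (iWAT), the subcutaneous depot of the groin. All 10 were listed, and all 10 were tested. The question was whether Gpnmb was higher in the mutant fat together with the other genes of this state or alone.

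RNA-Seq was performed on whole iWAT from control mice (fl/fl littermates, labelled wt) and from mice with adipocyte-specific deletion of Nrg4 (NRG4-AKO, here AKO), a secreted factor made by adipocytes. Both groups were kept in the cold (8°C) for 10 days according to the labels, although the text of the study gives a longer period. Each of the 3 samples per group held RNA pooled from 2 mice, so p-values measure the spread between such pools. Age, sex and strain are not given in the sources used here. Adiponectin-Cre drives the deletion in adipocytes, so macrophages were not the targeted cells. In whole tissue, fewer cells of a type and less RNA per cell cannot be told apart. Values are normalized read counts, which are read counts divided by a size factor for each sample. The study itself picked Gpnmb out of these libraries, so its direction here is not independent evidence.

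The state is best known from obese fat, where such macrophages gather around dying adipocytes. TREM2 binds lipids and signals through the adaptor DAP12 (Tyrobp) and the kinase SYK, and its targets equip the cell to store, digest and export cholesterol and fatty acids. Gpnmb, Atp6v0d2 and other lysosomal genes are also known targets of the MiT-TFE transcription factors, which respond to lysosomal stress.

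Nrg4, the targeted gene, had 3128, 3102 and 3092 normalized counts in control and 2577, 2627 and 2691 in AKO. The groups did not overlap, and the AKO mean was lower by 15.3% (log2 fold change -0.24, standard error 0.05, adjusted p = 0.298 from limma). The count covers the whole gene, and the part that was deleted is not given in the sources used here, so this is a weak check of the labels. By qPCR the study found almost no Nrg4 mRNA in the iWAT of AKO mice, a larger loss than in these counts. Why the measures differ was not tested.

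The samples differed in what tissue they held, as the plot of cell type markers shows. Between 17570335 and 18373707 reads per sample fell on the listed genes. The summed normalized count of 12 skeletal muscle genes was 175 in control replicate 1, 14973 to 27263 in the other control samples and 20124 to 118190 in the AKO samples. The sum over 6 lymphocyte genes was 868 in control replicate 1 and 1205 in AKO replicate 2, against 102 to 170 in the other 4 samples. Mammary epithelial genes ranged from 10.8 to 1550. General macrophage markers (12 genes, such as the lysozyme gene Lyz2, the complement gene C1qa and the receptor gene Csf1r) summed to 11108, 12220 and 15118 in control and to 17608, 13108 and 17864 in AKO, with overlapping groups.

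**Figure D1:**
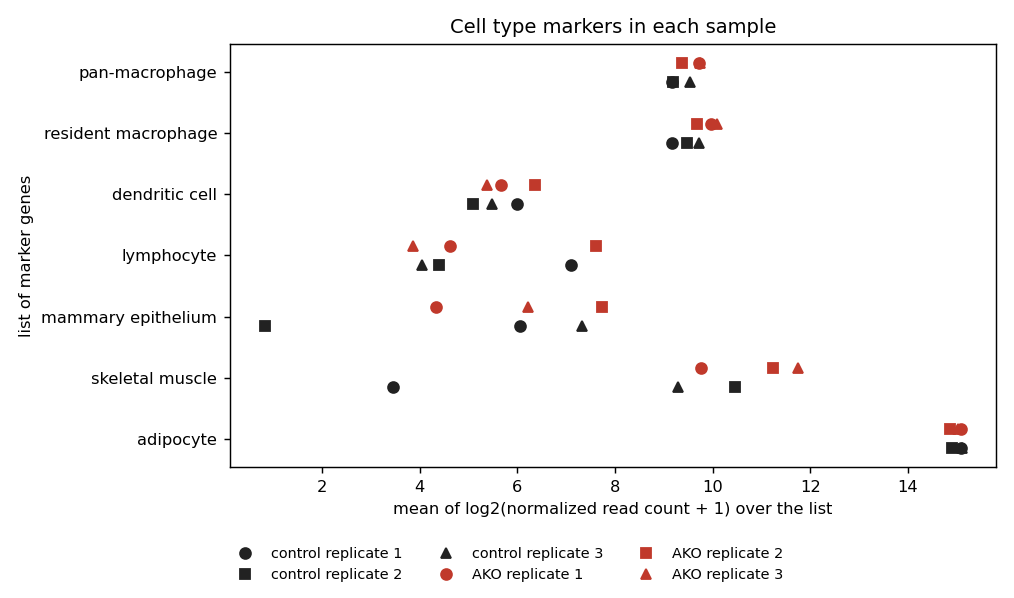
The mean of log2(normalized count + 1) over each list of marker genes is plotted for each sample, with control samples in black, AKO samples in red and a symbol for each replicate number. Muscle and mammary epithelial markers spread the most, and lymphocyte markers set control replicate 1 and AKO replicate 2 apart from the other samples. Adipocyte markers spread the least. General macrophage markers ran from 9.17 to 9.73 and resident macrophage markers from 9.16 to 10.1.

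Start-site sequences are shown for Gpnmb, Lgals3 and Lipa, because these are the 3 genes of the set whose control and AKO samples did not overlap. Each run covers 250 bases before to 30 bases after a RefSeq start site on GRCm38.p6 and reads 5′ to 3′ on the strand of the gene. Capitals mark a match to TGANTCA (the AP-1 motif) or GAGGAAG (a PU.1 motif, PU.1 being the transcription factor encoded by Spi1). CACGTG (the E-box) and TCATGTG (the M-box), which MiT-TFE factors bind, were also searched, all on both strands, and none of the matches overlapped another.
Gpnmb (chr6:49036268-49036547, plus strand): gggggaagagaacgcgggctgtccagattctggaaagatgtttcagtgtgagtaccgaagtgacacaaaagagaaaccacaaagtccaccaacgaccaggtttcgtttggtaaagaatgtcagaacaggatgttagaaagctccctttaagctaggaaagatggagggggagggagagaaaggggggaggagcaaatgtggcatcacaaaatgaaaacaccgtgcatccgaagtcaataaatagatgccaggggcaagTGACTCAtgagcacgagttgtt
Lgals3 (chr14:47373610-47373889, plus strand): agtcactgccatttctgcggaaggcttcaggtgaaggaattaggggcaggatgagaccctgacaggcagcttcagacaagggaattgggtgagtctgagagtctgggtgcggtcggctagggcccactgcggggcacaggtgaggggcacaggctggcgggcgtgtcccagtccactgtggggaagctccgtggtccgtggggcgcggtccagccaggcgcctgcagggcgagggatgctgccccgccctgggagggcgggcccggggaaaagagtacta
Lipa (chr19:34527445-34527724, minus strand): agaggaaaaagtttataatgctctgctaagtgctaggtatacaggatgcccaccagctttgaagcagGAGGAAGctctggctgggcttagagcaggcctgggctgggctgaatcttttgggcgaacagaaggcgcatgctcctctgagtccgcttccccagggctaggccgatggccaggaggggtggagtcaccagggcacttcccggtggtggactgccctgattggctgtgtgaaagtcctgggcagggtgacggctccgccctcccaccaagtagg

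The Gpnmb window held the AP-1 letters at position 9 after the start site, and the Lipa window held the PU.1 letters at position -183. The Lgals3 window held none of the 4 motifs. RefSeq windows were matched for 9 of the 10 genes (11 windows in all, with 2 each for Mmp12 and Spp1), and Atp6v0d2 had none. The AP-1 letters were in 4 of the 11 windows (Gpnmb, Itgax, Trem2 and 1 window of Mmp12) and in 7.46% of 32851 windows of all genes. The PU.1 letters were in 5 (Cd63, Lipa, Trem2 and 1 window each of Mmp12 and Spp1), against 12.2% of all windows. The M-box letters were in 1 window of Mmp12 (3.6% of all), and the E-box letters were in none (6.79% of all). A match says only that the letters are there.

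Gpnmb encodes a transmembrane glycoprotein of lysosomes and the cell surface. The gene lies on the plus strand at chr6:49036546-49070929 (GRCm38), and none of its exonic bases are shared with another gene. Gpnmb counts were 386, 393 and 508 in control and 593, 730 and 719 in AKO. The lowest AKO sample was above the highest control sample, and the means were 429 ± 68.7 (SD, n = 3) and 681 ± 76.0 (SD, n = 3). The AKO mean was 58.7% higher, with a log2 fold change of 0.67 (95% interval 0.37 to 0.97). Gpnmb did not pass the threshold of limma over 13855 genes (adjusted p = 0.240), and the exact 2-sided permutation test gave its smallest possible p, 0.1. DESeq2 on the recovered whole reads called it (adjusted p = 0.00135), while edgeR did not (adjusted p = 0.234). The DESeq2 call was lost without control replicate 2 (adjusted p = 0.0704), without AKO replicate 3 (adjusted p = 0.0835) and with the muscle signal of each sample as a covariate (adjusted p = 0.189, log2 fold change 0.55). In all 24 fits of the whole table, with other settings, tools or samples left out, Gpnmb kept a p under 0.05 before adjustment, and the highest was 0.0103.

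Lgals3 encodes galectin-3, a lectin that binds sugar chains on damaged lysosomes and on the cell surface. The gene lies at chr14:47367751-47386160, plus strand. It had 772, 999 and 1283 normalized counts in control and 1309, 1382 and 1308 in AKO. The AKO samples sat close together just above the highest control sample, while the control samples were spread widely. This gave a log2 fold change of 0.42 (95% interval 0.05 to 0.79, adjusted p = 0.519 from limma). Leaving out 1 sample in turn gave log2 fold changes from 0.24 (without control replicate 1) to 0.60 (without control replicate 3), and with the muscle covariate the value was 0.19 (95% interval -0.15 to 0.53). DESeq2 did not call Lgals3 with all samples (adjusted p = 0.333) and called it without control replicate 3 (adjusted p = 0.00288).

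Mmp12 encodes macrophage elastase, a secreted metalloproteinase, and Atp6v0d2 encodes a V-ATPase subunit found mainly in osteoclasts and some macrophages. Mmp12 (chr9:7344381-7369499, plus strand, with 2.17% of exonic bases shared with Mmp1b) had 23.1, 89.3 and 32.5 normalized counts in control and 79.7, 160 and 164 in AKO. Its groups overlapped, since control replicate 2 was above AKO replicate 1. Mmp12 had a log2 fold change of 1.63 (95% interval 0.49 to 2.76, adjusted p = 0.447 from limma), the largest of the 10 genes and also the least precise. DESeq2 called Mmp12 with all samples (adjusted p = 0.0474) and in 2 of 6 fits with 1 sample left out. Without control replicate 3 or AKO replicate 3 it was not called (adjusted p up to 0.713), and without control replicate 1 or AKO replicate 2 DESeq2 gave no adjusted p. The call was also lost with the muscle covariate (adjusted p = 0.929).

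Atp6v0d2 (chr4:19876841-19922605, minus strand) had 15.1, 26.9 and 18.3 normalized counts in control and 25.9, 47.8 and 50.1 in AKO. Again control replicate 2 was above AKO replicate 1, and the groups overlapped. A log2 fold change of 0.99 was fitted (95% interval 0.21 to 1.77, adjusted p = 0.492 from limma). Its widely expressed counterpart Atp6v0d1, which has the same place in the pump, had 1874, 1954 and 2089 normalized counts in control and 2019, 1773 and 2065 in AKO (log2 fold change -0.02, adjusted p = 0.973 from limma).

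Mmp12 and Atp6v0d2 ordered the 6 samples exactly as the skeletal muscle markers did, from control replicate 1 through control replicate 3, AKO replicate 1, control replicate 2 and AKO replicate 2 to AKO replicate 3. With the muscle markers as a covariate, the limma log2 fold change was 0.88 for Mmp12 (95% interval -0.08 to 1.83) and 0.60 for Atp6v0d2 (95% interval -0.24 to 1.45). Whether muscle tissue or cells that come with it contributed to these counts was not tested.

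**Figure D2:**
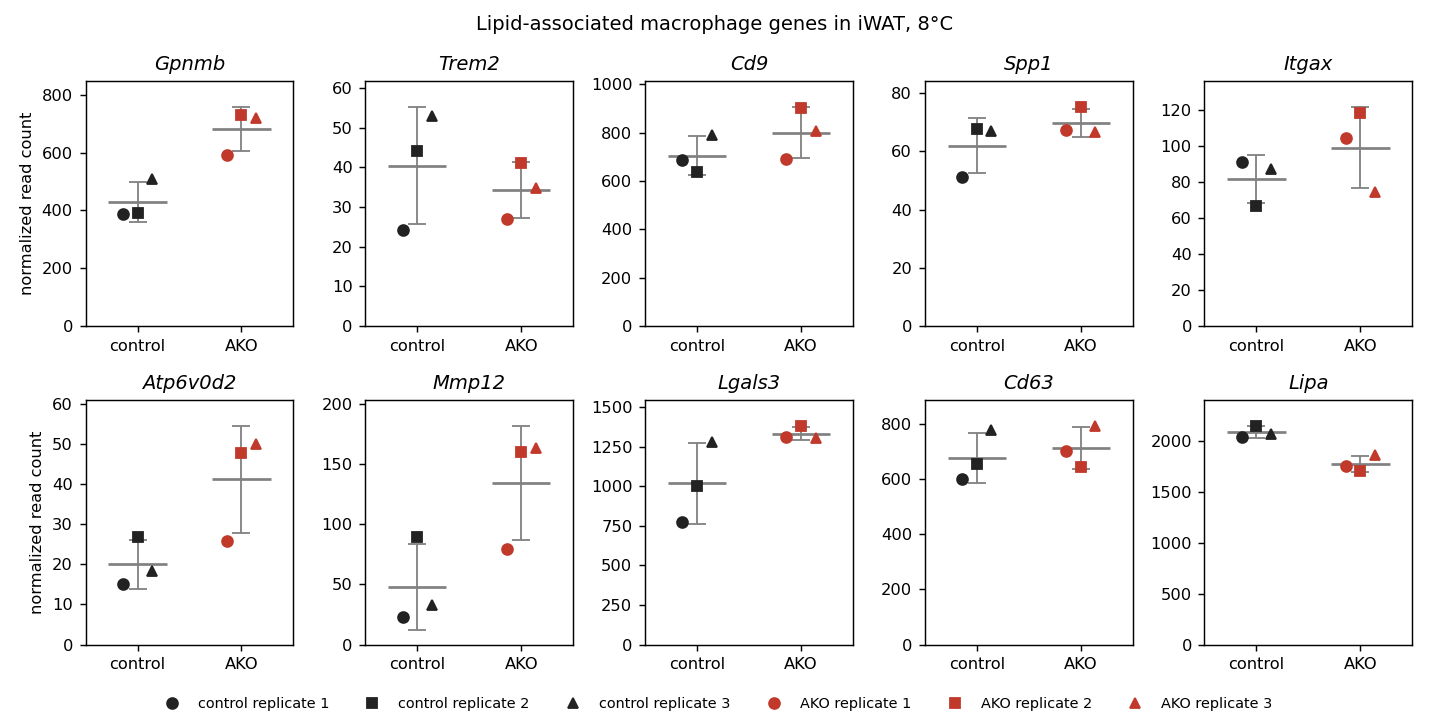
Normalized read counts of the 10 genes are plotted for each sample, with a separate vertical axis from 0 in each panel, symbols for the replicate number, and grey lines for the group mean with bars of 1 SD (n = 3). Gpnmb and Lgals3 are higher and Lipa is lower in AKO with no overlap, and the other 7 genes overlap between the groups.

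Trem2, the lipid receptor that gives the state its name in much of the field, was low in every sample. The gene (chr17:48346401-48354147, plus strand) had 24.1, 44.1 and 52.9 normalized counts in control and 26.9, 41.0 and 34.7 in AKO. All 3 AKO samples fell within the control range. Its log2 fold change was -0.18 (95% interval -0.92 to 0.56, adjusted p = 0.915 from limma). This interval holds the log2 fold changes of Itgax and Lgals3. Its upper end lies below the 0.67 of Gpnmb but within the Gpnmb interval (0.37 to 0.97). The sign of Trem2 turned without control replicate 3 (0.05). Its value was -0.02 without AKO replicate 1, -0.51 without control replicate 1 and -0.66 with the muscle covariate.

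Itgax encodes CD11c, the alpha chain of a beta-2 integrin on dendritic cells and on macrophages of obese fat. The gene (chr7:128129547-128150657, plus strand) had 91.3, 66.7 and 87.4 normalized counts in control and 105, 118 and 74.2 in AKO. AKO replicate 3 lay below 2 of the control samples. The log2 fold change was 0.26 (95% interval -0.22 to 0.74, adjusted p = 0.772 from limma). It was 0.12 without control replicate 2 or without AKO replicate 2, and 0.45 without AKO replicate 3.

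Cd9 and Cd63 encode tetraspanins, membrane organizers that are made by many cell types and mark the lipid-associated state by their high level. Cd9 (chr6:125460266-125494791, minus strand, with 10.7% of exonic bases shared with Gm26728) had 688, 637 and 792 normalized counts in control and 691, 902 and 806 in AKO. Its lowest AKO sample was level with control replicate 1 (log2 fold change 0.18, 95% interval -0.09 to 0.45, adjusted p = 0.710 from limma). Without AKO replicate 2 the Cd9 value was 0.09, without control replicate 2 it was 0.11, and without AKO replicate 1 it was 0.28, with a p under 0.05 before adjustment. Cd63 (chr10:128900989-128912822, plus strand) had 601, 655 and 779 normalized counts in control and 703, 644 and 794 in AKO. The Cd63 groups overlapped almost fully, with a log2 fold change of 0.08 (95% interval -0.19 to 0.35, adjusted p = 0.901 from limma).

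Spp1 encodes osteopontin, a secreted ligand of integrins and CD44. The gene (chr5:104435118-104441050, plus strand) shares 18.8% of its exonic bases with Gm42793. Spp1 had 51.2, 67.7 and 67.1 normalized counts in control and 67.2, 75.2 and 66.5 in AKO. Apart from the low control replicate 1 and the high AKO replicate 2, the 4 remaining values lay together. The log2 fold change was 0.17 (95% interval -0.21 to 0.56, adjusted p = 0.818 from limma). Without those 2 samples the Spp1 value was -0.01, and the SD of the AKO samples, 4.81, was below the counting error of 8.21 at their mean.

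Lipa encodes lysosomal acid lipase, which frees cholesterol and fatty acids from lipid delivered to the lysosome. Its fold change had the opposite sign to that of Gpnmb. The gene (chr19:34492318-34527474, minus strand) had 2034, 2148 and 2069 normalized counts in control and 1756, 1709 and 1860 in AKO. The highest AKO sample was below the lowest control sample. The AKO mean was lower by 14.8%, with a log2 fold change of -0.23 (95% interval -0.37 to -0.09, adjusted p = 0.362 from limma). In all 24 fits the Lipa fold change was below 0 with a p under 0.05 before adjustment, and in none of them did its adjusted p pass 0.05 (lowest 0.0694).

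Counted together, 8 of the 10 log2 fold changes were above 0 and 2 (Trem2 and Lipa) were below it, with a median of 0.22, against 51.9% above 0 and a median of 0.007 over all genes tested. Without Gpnmb the median of the other 9 genes was 0.18. Leaving out 1 sample gave a median of the 10 from 0.13 (without AKO replicate 2) to 0.32 (without AKO replicate 3). Limma called 0 of the 10 (0.0144% of all genes were called), edgeR called 0 (0.0216%) and DESeq2 called 2, Gpnmb and Mmp12 (0.998%, or 0.241% higher in AKO). Before adjustment, limma gave a p under 0.05 for 4 higher genes, Gpnmb, Atp6v0d2, Mmp12 and Lgals3 (background 4.41%), and for 1 lower gene, Lipa (background 4.69%). These were 5 of 10 in either direction (background 9.1%), and edgeR and DESeq2 each gave 5 (9.24% and 6.25% of all genes). The groups did not overlap for 2 higher genes (background 6.14%) and 1 lower gene (background 8.31%). This count of 3 became 5 without control replicate 2 and 6 without AKO replicate 1, where fewer samples make overlap less likely. Control replicate 1 was the lowest sample in 7 of the 10 genes, and AKO replicate 2 was the highest in 5 and AKO replicate 3 in 3. The muscle covariate left 2 genes with a p under 0.05 before adjustment, Gpnmb (log2 fold change 0.57, 95% interval 0.21 to 0.92) and Lipa (log2 fold change -0.26, 95% interval -0.43 to -0.10). This covariate was higher on average in AKO. It was 3.44 in control replicate 1 and 9.28 to 11.7 in the other samples. Muscle signal and genotype therefore cannot be fully told apart in these fits.

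**Figure D3:**
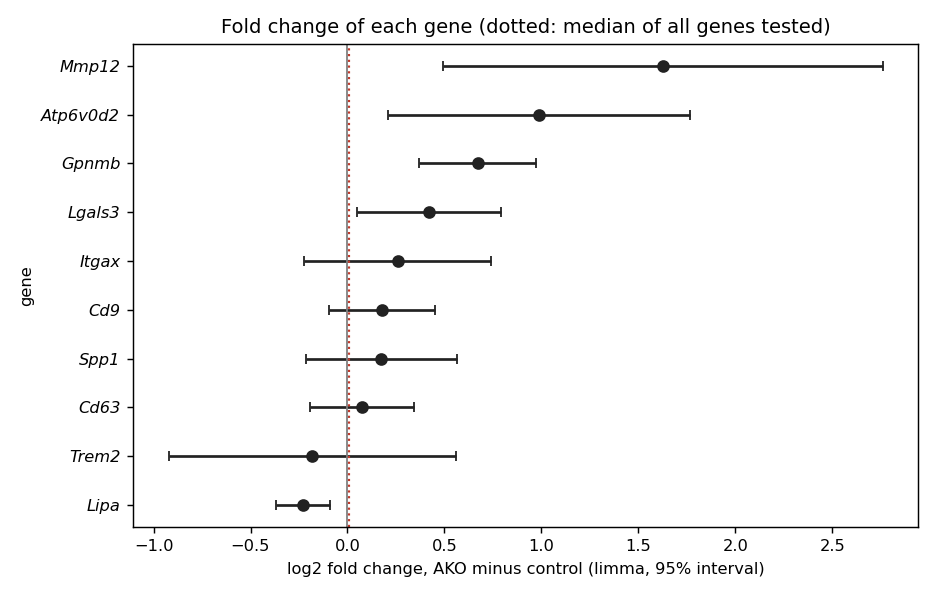
The log2 fold change (AKO minus control) of each gene is plotted with its 95% interval from limma, where the grey line marks 0 and the dotted line marks the median of all genes tested, 0.007. The intervals of Mmp12, Atp6v0d2, Gpnmb and Lgals3 lie above 0, and that of Lipa lies below it.

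Gpnmb was then set against each of the other 9 genes within the same sample, as log2(Gpnmb + 1) minus log2(gene + 1). A positive change in this difference means that Gpnmb was higher in AKO relative to the other gene. For 5 genes all AKO differences exceeded all control differences, by 0.90 for Lipa, 0.85 for Trem2, 0.59 for Cd63, 0.50 for Spp1 and 0.49 for Cd9 (exact permutation test, p = 0.1 each, the smallest 3 against 3 allows, and 0.18 adjusted over the 9). Relative to Itgax (0.41, exact p = 0.3) and Lgals3 (0.25, exact p = 0.2) the groups overlapped. Relative to Atp6v0d2 (-0.32, exact p = 0.3) and Mmp12 (-0.96, exact p = 0.4) the mean difference was below 0, with overlap. With 3 samples against 3, none of these tests could reach 0.05. The study had picked Gpnmb from these libraries, and its own groups did not overlap. Differences from a gene with little change would therefore tend to separate, and the share over all genes was not computed.

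The general macrophage markers gave a further yardstick. Of the 12, 11 had a log2 fold change above 0 (51.9% of all genes), and limma called 0. A p under 0.05 before adjustment was given for 3, all higher (background 4.41%). The groups did not overlap for 2, both higher (background 6.14%). The mean of log2(value + 1) over the 12 markers was subtracted from that of Gpnmb, giving -0.57, -0.58 and -0.55 in control and -0.51, 0.13 and -0.24 in AKO. The control samples were almost equal, and all 3 AKO samples were above them, AKO replicate 1 only slightly. The change was 0.36 (exact permutation test, p = 0.1), about as large as the median log2 fold change of the markers themselves, 0.34. Without AKO replicate 2 the change was 0.19, and without AKO replicate 1 it was 0.51. By the same measure Lipa (-0.54) and Cd63 (-0.24) were lower, relative to the markers, in all 3 AKO samples than in any control sample. The other 7 genes overlapped, from -0.49 for Trem2 to 1.31 for Mmp12. The marker mean itself was 0.31 higher in AKO. The counts of Cd63 overlapped between groups (log2 fold change 0.08), and the share of all genes set apart by this measure was not computed.

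**Figure D4:**
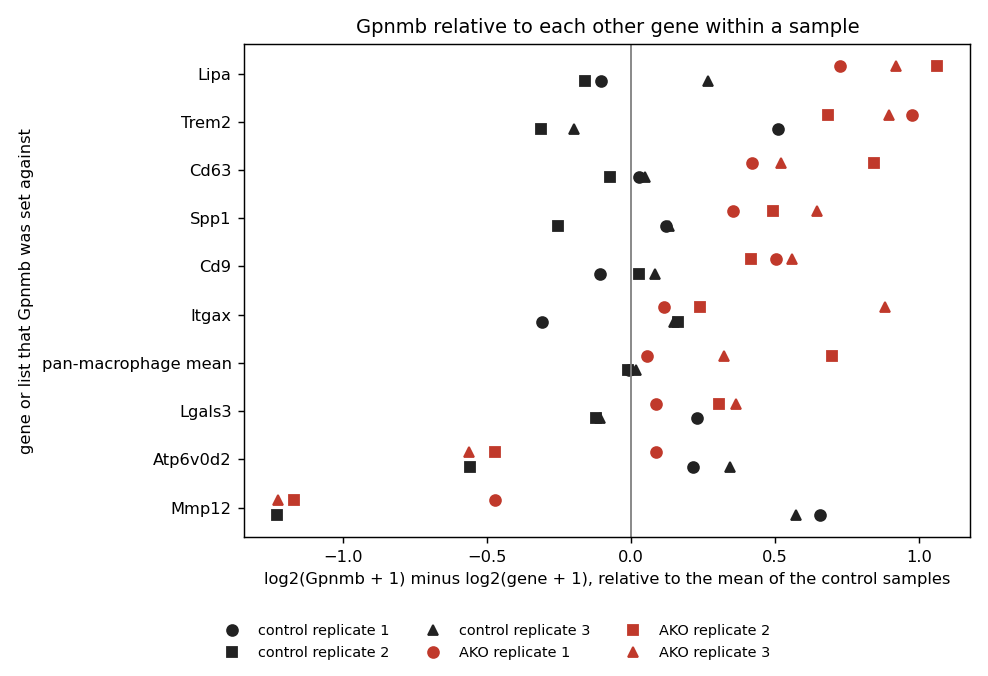
For each other gene and for the mean of the 12 general macrophage markers, the difference log2(Gpnmb + 1) minus log2(gene + 1) is plotted in each sample, relative to the mean of the control samples, which is at 0. All AKO samples lie to the right of all control samples for Lipa, Trem2, Cd63, Spp1, Cd9 and the macrophage mean, and the groups mix for Itgax, Lgals3, Atp6v0d2 and Mmp12.

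Per length of exon, the levels of the 10 genes spanned a wide range. Mean normalized counts per kb in the control samples were 548 for Lgals3, 345 for Cd9, 307 for Lipa, 184 for Cd63 and 65.9 for Gpnmb. They were 37.6 for Spp1, 17.0 for Itgax, 8.16 for Trem2, 7.39 for Atp6v0d2 and 6.67 for Mmp12. The control ranges of Cd9 and Lipa overlapped, as did those of Trem2, Atp6v0d2 and Mmp12, so these neighbours did not differ beyond their spread. In AKO the means per kb were 718 for Lgals3, 391 for Cd9, 262 for Lipa, 194 for Cd63, 105 for Gpnmb and 42.3 for Spp1, in the same order. At the bottom the AKO order was Itgax (20.6), Mmp12 (18.6), Atp6v0d2 (15.2) and Trem2 (6.91), and the AKO range of Trem2 lay below the overlapping ranges of the other 3.

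**Figure D5:**
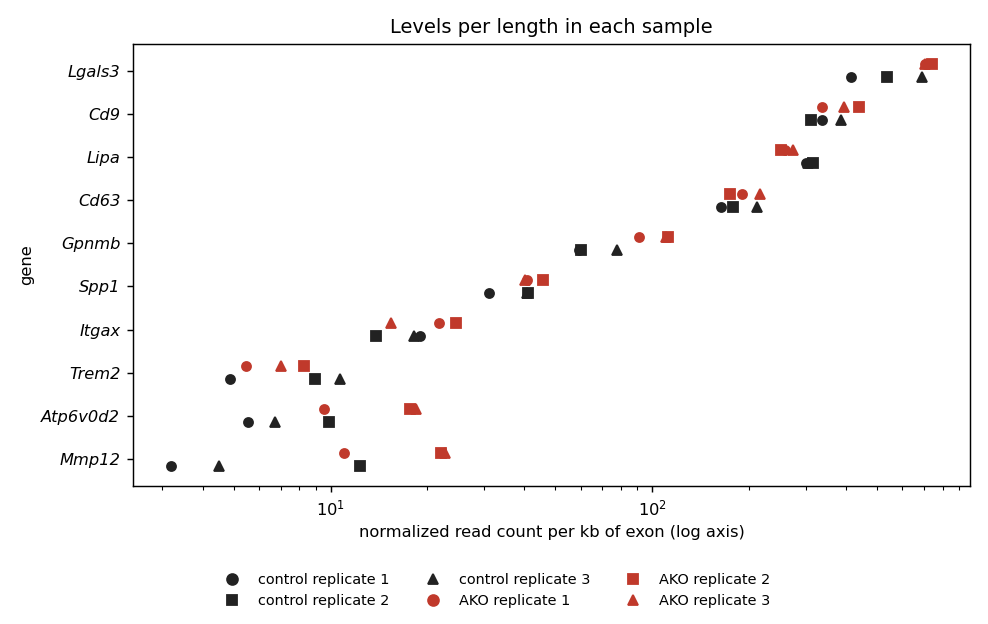
Normalized read counts per kb of exon are plotted for each gene and sample on a log axis, with control samples in black and AKO samples in red. The order of the upper 6 genes is the same in both groups, and Trem2 is the gene with the lowest mean in AKO.

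The partners of TREM2 were taken as a list of their own. All 6 genes (Tyrobp, Hcst, Syk, Plcg2, Inpp5d and Spi1) had a log2 fold change above 0, with a median of 0.34. Limma called 0 of them, and a p under 0.05 before adjustment was given for 3 (background 4.41% higher), which also had no overlap between groups (background 6.14%) and were named after their values were seen. Syk had 511, 442 and 541 normalized counts in control and 583, 639.5 and 596 in AKO (log2 fold change 0.29, adjusted p = 0.466 from limma). Inpp5d, which encodes the phosphatase SHIP1, had 392.4, 314 and 381 in control and 456, 475 and 457 in AKO (log2 fold change 0.36, adjusted p = 0.387 from limma). Spi1, which encodes PU.1, had 261, 234 and 282 in control and 365, 308 and 308 in AKO (log2 fold change 0.33, adjusted p = 0.473 from limma). These genes are made by most myeloid cells, and Tyrobp itself, with 255, 271 and 397 in control and 365, 343 and 455 in AKO, overlapped. The median of the list was the same as that of the general macrophage markers.

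The other genes of the TREM2-dependent programme lay closer to 0. Of 23 listed genes 22 were tested, Dcstamp being too low, and the log2 fold changes were above 0 for 12 and below 0 for 10, with a median of 0.05. Limma called 0 and gave a p under 0.05 before adjustment for 3, all higher (background 4.41%, named after their values were seen). These were Cd68, which encodes a lysosomal glycoprotein of macrophages (log2 fold change 0.37), Capg, which encodes an actin-capping protein (0.33), and Soat1, which encodes an enzyme that esterifies cholesterol (0.44). Their adjusted p from limma was 0.473, 0.355 and 0.498. The groups did not overlap for 2 higher genes, Capg and Soat1 (background 6.14%). They also did not overlap for 1 lower gene, Acp5 (log2 fold change -0.16, background 8.31%), named after its value was seen. The most abundant genes of the list, Lpl (-0.15), Cd36 (-0.11) and Ctsb (-0.03), all overlapped between groups, and the first 2 are made in large amounts by adipocytes too.

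Lysosomal gene groups had medians near 0. Of 13 other lysosomal genes 7 were above 0 and 6 below, with a median log2 fold change of 0.01, and limma called 0 of them. The 3 most abundant, Psap (-0.11), Lamp1 (-0.04) and Npc2 (-0.04), lay near 0. Of 15 tested V-ATPase subunits 12 were below 0, with a median of -0.05, and none had a p under 0.05 before adjustment. The MiT-TFE factors Tfe3 (log2 fold change 0.00), Tfeb (0.06, without overlap between groups) and Mitf (0.06) lay near 0, with adjusted p of 0.998, 0.843 and 0.961 from limma. The scarce Tfec, named after its value was seen, had 7.12 to 17.1 normalized counts in control and 10.7 to 20.2 in AKO. Its log2 fold change was 0.45 (95% interval -0.55 to 1.45, adjusted p = 0.817 from limma).

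Other cell types known to make Gpnmb were looked for. Of the melanocyte markers, Tyr and Slc45a2 were not listed, Tyrp1 had at most 4.07 normalized counts in any sample and Mlana at most 12.5, and the sum over the 4 listed genes ran from 31.2 to 48.8 in control and from 43.4 to 48.8 in AKO. Dct, with 9.15 to 16.1 in control and 16.4 to 22.1 in AKO, was higher in all AKO samples (log2 fold change 0.57, adjusted p = 0.657 from limma), while Pmel overlapped (-0.30, adjusted p = 0.873 from limma). Of the osteoclast markers, Calcr was not listed, Ocstamp had at most 11.8 normalized counts, Oscar was lower in every AKO sample (log2 fold change -0.67, adjusted p = 0.652 from limma), and Nfatc1, the most abundant, overlapped (0.07). The 8 dendritic cell genes, among which Itgax is also at home, had a median log2 fold change of 0.21 and none with a p under 0.05 before adjustment.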

How the data were processed

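RNA-Seq of whole iWAT was performed in 6 samples, 3 control and 3 AKO, grouped by the genotype in their labels. The authors aligned reads with STAR to GRCm38.p6 (mm10 in the submitters' processing notes), counted them per gene with featureCounts on GENCODE annotation and used DESeq2. Whether counting used strand is not given in the sources used here. The deposited signal per gene and sample is the read count divided by a size factor. The authors' own log2 fold changes and p-values in the deposited table were not used. Every per-sample column belonged to a labelled sample (0 did not).

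The members and gene lists were chosen with earlier results of these data known. Genes with a mean of at least 10 (13855 of 16538) were tested with limma (version 3.58.1, R 4.3.3) on log2(normalized count + 1) with a variance trend, with Benjamini-Hochberg adjustment over all of them and a threshold of 0.05. Fold changes are on this scale, where the added 1 draws the change of low genes toward 0. The value of Mmp12 was still higher on it (1.63) than by edgeR (1.50) or DESeq2 (1.48). Dividing by the value of 1 read (0.960 to 1.08) gave whole reads for 100% of values (tolerance 0.01 reads). Those reads were tested with edgeR (4.0.16), which called 3 of 13869 genes, and DESeq2 (1.42.0), which called 149 of 14923, as alternatives. With the muscle covariate, DESeq2 ran without its own filter on low genes, unlike its other fits. Single values were compared with the 2-sided exact permutation test. The member genes had 15 to 2035 reads in a sample, so the lowest carry the largest relative counting error. Within a group, reads of any 2 samples differed beyond sampling noise, the chi-square being 10.3 to 21.3 per degree of freedom. The tests were first tested on simulated data.

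Genes named are the 10 members, Nrg4, Atp6v0d1, up to 3 of the most abundant genes of each list, markers near 0, and the 5 genes averaging 100 or more whose centred profile was closest to that of Gpnmb. Others are said to be named after their values were seen. Single results of some listed genes are not reported here. Gene positions, exonic length and shared bases are from GENCODE M21 (GRCm38), and 15894 of the 16538 symbols (96.1%) matched. Start-site sequences are from RefSeq.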

Additional observations from a re-analysis of the deposited data

How the results depend on the processing

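Limma called none of the 10 genes under any other pseudocount (0.1 or 10), filter, TMM scaling, added muscle covariate or left-out sample, and edgeR called none. DESeq2 called 2, and 0 to 2 with 1 sample left out, an alternative chosen after seeing the data. The log2 fold change of Gpnmb was 0.67 by DESeq2 (adjusted p = 0.00135). DESeq2 gave 0.59, 0.61, 0.75 and 0.81 without control replicate 1, AKO replicate 2, AKO replicate 1 and control replicate 3. It gave 0.61 and 0.63 without control replicate 2 and AKO replicate 3, where the call was lost. Limma gave 0.60 to 0.80 with 1 sample left out. All 23 alternatives ran from 0.55 to 0.81 (adjusted p from 1.91e-05 to 0.632). The count of genes with a p under 0.05 before adjustment, 5, became 2 with the muscle covariate (limma and DESeq2), 3 without both control replicate 1 and AKO replicate 2 (chosen after seeing the data), and 3 to 5 with 1 sample left out.

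Of 230 values of member fold changes 11 turned sign. Cd63 was -0.0306 with the muscle covariate (-0.0350 by DESeq2), ran from -0.00575 to 0.18 with 1 sample left out (lowest without control replicate 1, then -0.00267 without AKO replicate 3), and was -0.0104 and -0.00907 by DESeq2 without those samples. Spp1 was -0.00682 with the muscle covariate (-0.00525 by DESeq2) and ran from -0.0116, without both samples named above, to 0.24 with samples left out. With samples left out, Trem2 ran from -0.64 without both to 0.0457 without control replicate 3 (0.00867 by DESeq2). With the muscle covariate Trem2 was -0.66 (-0.68 by DESeq2). The cause was not tested.

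Same-numbered samples hold RNA of different mice, and their deviations from the group means correlated at 0.135, -0.351 and 0.240. With 3 samples per group these correlations cannot settle whether the numbers marked a pairing. With the replicate number as a block, Gpnmb had a log2 fold change of 0.67 (adjusted p = 0.0761) and no member was called. The low reads of Atp6v0d2, Trem2, Mmp12 and Spp1 limit what could be detected for them.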

Other observations

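Families of the member genes were compared as fixed lists, and limma called 0 genes in each. Over all genes 9.1% had a p under 0.05 before adjustment (4.41% higher), 51.9% had a log2 fold change above 0, and 6.14% were higher without overlap. Of 6 other tetraspanins 4 had a log2 fold change above 0 (median 0.11). The most abundant, Cd151 (-0.02) and Cd81 (-0.01), lay near 0, and only Cd53, made by leukocytes, had a p under 0.05 before adjustment (0.39, adjusted p = 0.515 from limma, named after its value was seen). The other galectins had a median of 0.00, and Lgals1, the most abundant, was at 0.02. Among 8 tested metalloproteinases and their inhibitors all 8 were above 0 (median 0.26). Mmp3 had 323, 469 and 420 normalized counts in control and 543, 544 and 643 in AKO (log2 fold change 0.52, adjusted p = 0.374 from limma), and Mmp14 had 1140, 1336 and 1392 in control and 1867, 1395 and 1566 in AKO (0.31, adjusted p = 0.515 from limma). Neither gene overlapped between groups, and both were named after their values were seen. These enzymes are made mainly by stromal cells. The 5 progenitor markers had log2 fold changes from 0.19 to 0.57, with a median of 0.30. Whether stromal cells contributed to the values of Mmp3 and Mmp14 was not tested.

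Of the 9 integrin and CD44 family genes 7 were above 0 (median 0.19). The most abundant, Itgb1 (-0.01), Itgb5 (0.12) and Sdc4 (-0.02), overlapped between groups. A p under 0.05 before adjustment was given for Itgb2 (0.26), the partner chain of CD11c, and Itgb3 (0.53), both overlapping between groups (limma adjusted p = 0.539 each) and named after their values were seen. All 8 tissue-resident macrophage genes were above 0 (median 0.44), and 5 had a p under 0.05 before adjustment, but 7 of the 8 overlapped between groups. The abundant F13a1 and Mrc1 were at 0.42 and 0.39. The resident median, 0.44, was above the median of the 10 lipid-associated genes, 0.22, and the difference between the lists was not tested.

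The 5 genes whose profile over the 6 samples was closest to that of Gpnmb, by root mean square difference of centred log2 values among 10302 genes, were Prkab2 (0.08), Ptprj (0.10), Slfn2 (0.11), Wisp2 (0.13) and Gpc6 (0.14). Of the member genes abundant enough to be compared, Lgals3 ranked 35 (0.19), Cd9 ranked 237 (0.26), Cd63 ranked 1387 (0.33) and Lipa ranked 9303 (0.48).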
